A study of Homo sapiens with 5 samples.

Results

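The subtelomeric H3K9me3 peaks of the human autosomes were described in HEK293T cells, a line from human embryonic kidney. A peak was a member when its midpoint lay within 2 Mb of an end of chromosomes 1 to 22 on GRCh38. The short-arm ends of chromosomes 13, 14, 15, 21 and 22 were left out, which gave 39 chromosome ends and 78 Mb of sequence, or 2.71% of the autosomes. The members numbered 677 of 13455 peaks in the KD list and 1338 of 26364 peaks in the EV list. A further list carries no genotype in its name, and it held 564 such peaks of 15215. The 3 lists together held 2579 members of 55034 peaks.

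H3K9me3, trimethylation of histone H3 at lysine 9, was profiled by chromatin immunoprecipitation and sequencing. The labels give 5 samples, which are H3K9me3 libraries from HEK293T cells labelled KD, EV and WT, and input libraries labelled EV and WT, with 1 library per group. KD is read here as the knockdown named in the series as KCNQ1OT1_K, and EV as its empty-vector control. The sources used here do not explain the suffix K, the means of the knockdown or whether the cells are 1 clone, which leaves the target uncertain. KCNQ1OT1, a long non-coding RNA of an imprinted domain on chromosome 11, lies outside the 2 Mb window of 11p, and its level was not measured by these files. The list without a genotype could not be matched to a sample, so it was described on its own and entered no comparison of groups.

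H3K9me3 marks silenced chromatin and is bound by heterochromatin protein HP1. Chromosome ends carry telomeric TTAGGG repeats, and the adjoining subtelomeres hold blocks of sequence duplicated between chromosomes, clusters of zinc finger and olfactory receptor genes and, at 4q and 10q, the D4Z4 repeat array. D4Z4 units contain DUX4, a germline and early-embryo transcription factor whose loss of silencing in muscle is linked to facioscapulohumeral muscular dystrophy. Clusters of genes for C2H2 zinc finger proteins, many of which repress transposable elements, are known H3K9me3 domains. Peaks over near-identical copies share reads, so which copy carries the mark is uncertain for D4Z4 units and duplicated blocks.

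The sequences of 5 protein-coding promoters that lay under a peak of both the KD and the EV list are shown as examples of marked sequence. They were taken from RefSeq GRCh38.p14, as the 250 bases before each gene's start, written 5′ to 3′ on the gene's strand with each CG in capitals. CHL1 encodes a neural cell adhesion molecule, FOXL3 a forkhead transcription factor and NKX1-1 a homeobox transcription factor. ZNF141 and ZNF544 encode C2H2 zinc finger proteins. Genes with LOC symbols were left out. Some of these peaks were weak, with a −log10 p of 3.73 in EV at FOXL3 and 3.87 in KD at ZNF141. The list without a genotype had no peak at the promoters of FOXL3, NKX1-1 and ZNF141.
CHL1, chr3:197639-197888, plus strand: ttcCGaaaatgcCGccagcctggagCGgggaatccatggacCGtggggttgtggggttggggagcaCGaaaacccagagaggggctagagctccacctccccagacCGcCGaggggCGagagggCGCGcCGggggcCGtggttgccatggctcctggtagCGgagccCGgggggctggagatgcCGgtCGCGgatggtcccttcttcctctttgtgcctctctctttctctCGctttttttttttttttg
FOXL3, chr7:289920-290169, plus strand: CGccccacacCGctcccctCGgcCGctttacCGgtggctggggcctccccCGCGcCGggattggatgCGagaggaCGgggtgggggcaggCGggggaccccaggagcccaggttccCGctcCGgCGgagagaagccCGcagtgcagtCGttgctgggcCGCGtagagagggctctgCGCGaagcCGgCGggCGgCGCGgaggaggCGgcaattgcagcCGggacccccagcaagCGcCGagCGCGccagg
NKX1-1, chr4:1406443-1406692, minus strand: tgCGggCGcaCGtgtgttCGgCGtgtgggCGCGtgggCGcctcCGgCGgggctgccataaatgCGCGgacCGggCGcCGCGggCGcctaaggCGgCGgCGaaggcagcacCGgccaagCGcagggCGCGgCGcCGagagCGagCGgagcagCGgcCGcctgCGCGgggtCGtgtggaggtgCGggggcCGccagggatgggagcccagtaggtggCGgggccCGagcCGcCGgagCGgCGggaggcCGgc
ZNF141, chr4:337564-337813, plus strand: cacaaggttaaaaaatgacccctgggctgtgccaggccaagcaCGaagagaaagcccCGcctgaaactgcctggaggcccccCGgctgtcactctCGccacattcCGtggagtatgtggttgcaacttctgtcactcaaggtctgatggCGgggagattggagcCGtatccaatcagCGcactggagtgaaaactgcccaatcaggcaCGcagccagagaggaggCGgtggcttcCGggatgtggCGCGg
ZNF544, chr19:58228664-58228913, plus strand: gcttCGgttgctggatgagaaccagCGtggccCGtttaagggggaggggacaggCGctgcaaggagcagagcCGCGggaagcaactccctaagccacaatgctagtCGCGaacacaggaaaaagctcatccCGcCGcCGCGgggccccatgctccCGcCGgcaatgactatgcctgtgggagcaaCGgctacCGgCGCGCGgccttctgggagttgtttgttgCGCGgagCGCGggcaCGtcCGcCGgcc

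The NKX1-1 promoter held 42 CG pairs, and 1.39% of the 33725 autosomal promoters of the table held as many or more. The FOXL3 promoter held 31, ZNF544 26, CHL1 18 and ZNF141 13 CG pairs, numbers reached by 10.99%, 19.8%, 37.1% and 46.8% of these promoters. The median was 18 CG pairs in the 2002 subtelomeric promoters and 11 in all promoters. The telomeric hexamer TTAGGG, searched on both strands as TTAGGG or CCCTAA, occurred in 5.59% of the subtelomeric promoters and 7.99% of all promoters. Of the promoters shown, ZNF544 held 1 copy and the others none.

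Peaks also covered miRNA hairpins, short hairpin RNAs from which mature miRNAs are cut. The 5 mature miRNAs whose hairpins lay under a subtelomeric KD or EV peak are shown with the seed, bases 2 to 8, in capitals. The sequences are those of RefSeq.
hsa-miR-4539: gCUGAACUgggcugagcugggc
hsa-miR-4507: cUGGGUUGggcugggcuggg
hsa-miR-4538: gAGCUUGGaugagcugggcuga
hsa-miR-4537: uGAGCCGAgcugagcuuagcug
hsa-miR-8078: gGUCUAGGcccggugagagacuc

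No seed was shared, since the 5 mature miRNAs had 5 distinct seeds. The genes of miR-4539, miR-4507, miR-4538 and miR-4537 lie inside IGH, the immunoglobulin heavy chain locus at the end of 14q. No KD peak touched them, and all 4 were under 1 EV peak, chr14:105856327-105859879, with a fold enrichment of 3.98. The list without a genotype had no peak there. MIR8078 at 18p lay under a KD peak of 5707 bp and an EV peak of 5867 bp. Of 92 hairpins in the subtelomeric windows, 1 had a KD peak and 5 had an EV peak, while the list without a genotype touched 0. Over all 1461 autosomal hairpins of the table the called shares were 0.89% in KD, 1.98% in EV and 0.479% in the list without a genotype.

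Subtelomeric sequence carried about the same share of each list's autosomal peaks in KD and EV. The share was 5.60% in KD (95% exact Clopper-Pearson interval 5.20 to 6.03) and 5.76% in EV (5.46 to 6.06), against 2.71% of the sequence. The list without a genotype had 4.26% of its autosomal peaks there (3.92 to 4.62). All intervals here cover counting error over peaks only, and neighbouring peaks are not independent. Since each group had 1 library, KD and EV could be described but not tested against each other. Read numbers are unknown for all 3 lists, and how far depth sets the number of peaks was not tested.

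The KD list held 8.68 subtelomeric peaks per Mb and the EV list 17.2, and the list without a genotype 7.23. In the rest of the autosomes the densities were 4.08 per Mb in KD, 7.83 in EV and 4.53 in the list without a genotype. Part of the rest lies in 26 gene-free stretches of at least 2 Mb, 168.7 Mb in all, and no subtelomeric peak lay in such a stretch. Outside those stretches the densities of the rest were 2.13, 6.03 and 2.22 per Mb in KD, EV and the list without a genotype. Subtelomeric sequence was therefore the denser region in each list, and more so once gene-free stretches were set aside.

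Peaks covered 0.789 Mb of the windows in KD, or 1.01%, and 2.01 Mb in EV, or 2.58%. In the rest outside gene-free stretches they covered 0.213% in KD and 0.709% in EV. In the list without a genotype the covered shares were 0.920% of the windows and 0.239% of the rest outside gene-free stretches. A subtelomeric peak had a median width of 838 bp in KD and 1091 bp in EV, and 892.5 bp in the list without a genotype. The medians of the authors' fold enrichment were 3.501 in KD, 2.96 in EV and 3.34 in the list without a genotype, each on its own list's scale, so no difference is read from them. Peaks of at least 5 kb numbered 10 in KD, 39 in EV and 11 in the list without a genotype.

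The KD list had fewer and narrower subtelomeric peaks than the EV list. KD had 0.506 times the number of peaks in EV (0.461 to 0.555) and 0.392 times the covered length. In the rest of the autosomes the same ratios were 0.521 (0.509 to 0.533) and 0.408, so the subtelomeric windows did not stand apart from the whole of the rest. Outside gene-free stretches the ratios of the rest were lower, at 0.353 (0.342 to 0.364) for number and 0.300 for covered length. When the EV list was cut to its 12081 strongest autosomal peaks by −log10 p, the number in the KD list, the subtelomeric KD/EV ratio was 0.959 for number and 0.661 for covered length. In the rest of the autosomes these ratios were 1.00 and 0.549, and outside gene-free stretches 0.784 and 0.554. Equal list lengths bring the number ratio over all autosomes to 1 by construction. The kept EV peaks are the stronger and wider ones, with a median subtelomeric width of 838 bp in KD and 1258.5 bp in the kept EV peaks, so the covered ratio is no like-for-like value.

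The peaks nearest to the window edge on either side lay at different chromosome ends. The last KD peak inside lay at 2p, 1.997 Mb from the end, with a fold enrichment of 4.26, and the first outside lay at 18q, 2.001 Mb from the end, with 4.67. The last EV peak inside lay at 19q, 1.9995 Mb from the end, with 2.86, and the first outside lay at 5q, 2.0004 Mb from the end, with 2.91. In the list without a genotype they lay at 10q with 3.32 and at 18q with 5.42.

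The chromosome ends differed widely among themselves. A single end held 2 to 94 KD peaks (median 12) and 7 to 143 EV peaks (median 26), and 1 to 72 peaks of the list without a genotype (median 8). The 5 ends with most coverage held 37.2% of the covered bases in KD and 43.5% in EV, and 46.4% in the list without a genotype. At 35 ends in KD and 34 ends in EV the covered share was above that of the rest of the same chromosome outside gene-free stretches, and at 30 ends in the list without a genotype.

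**Figure D1:**
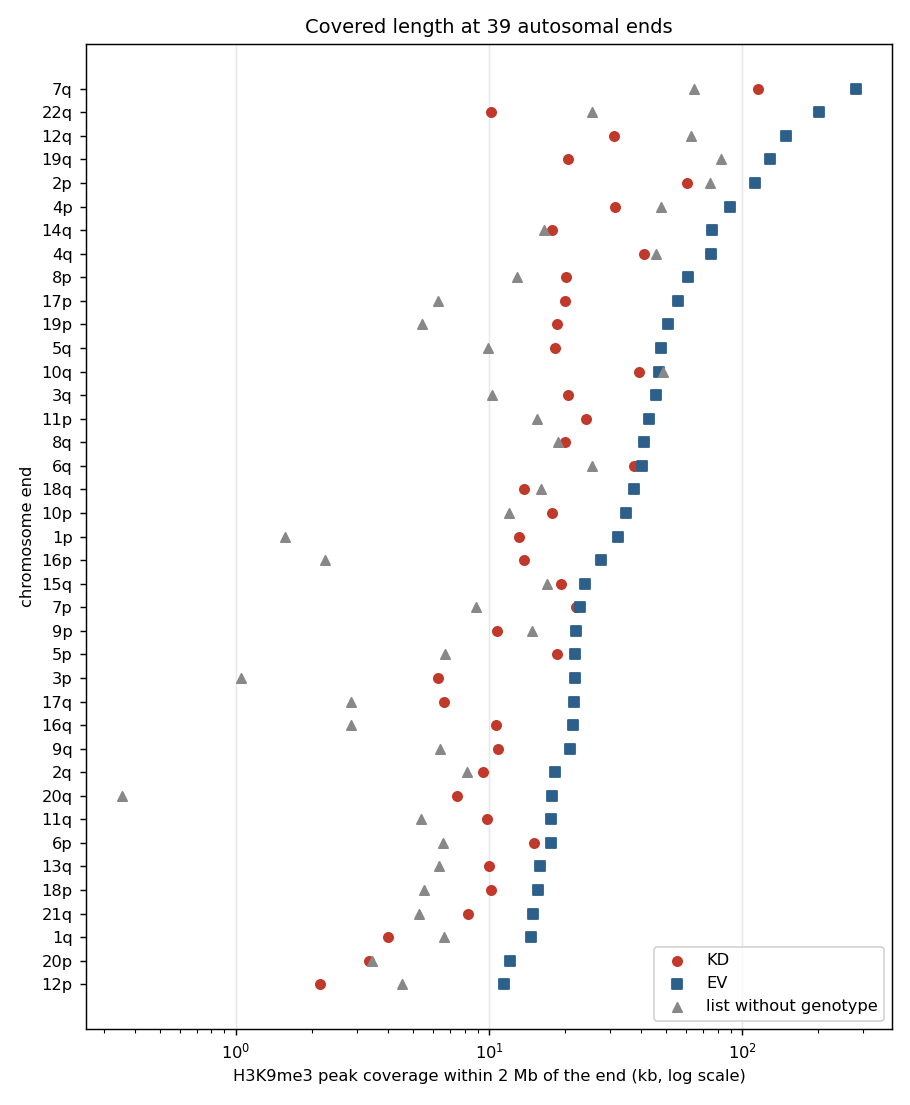
Length covered by H3K9me3 peaks within 2 Mb of each of 39 autosomal ends, in kb on a log axis. Circles are KD, squares EV and triangles the list without a genotype, 1 library each, and every KD circle lies left of its EV square, which did not hold at 4 ends once EV was cut to its 12081 strongest peaks.

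KD covered less than EV at 39 of 39 ends, with a median KD/EV ratio of 0.485. It had fewer peaks at 37 ends, more at 1 end, 7p, and an equal number at 1 end, 15q, with 9 peaks in KD and 9 in EV. The ratio of covered length ran between 0.0503 at 22q and 0.958 at 7p. With EV cut to the 12081 peaks, KD covered less at 35 ends and more at 4.

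The end of 22q had the lowest ratio. It held 9 KD peaks over 10.2 kb and 93 EV peaks over 201.8 kb, and 24 peaks over 25.6 kb in the list without a genotype. Of its 93 EV peaks 7, or 7.53%, were overlapped by a KD peak. Nearly all of the EV coverage lay between 1 and 2 Mb of the end, where KD had 5 peaks over 6.49 kb and EV 83 peaks over 193.7 kb. The outer 1 Mb held 4 KD peaks and 10 EV peaks.

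The long non-coding RNA gene LINC01310 at 22q, chr22:48866770-48898386, was covered to 3.17% in KD and 57.6% in EV, and to 5.56% in the list without a genotype, or to 14.99% in the cut EV list. MIR3667HG, a miRNA host gene, had 0 KD peaks and 10 EV peaks over 4.56% of its length, and 0 peaks in the list without a genotype. Of these 10 EV peaks 2 were among the 12081 strongest, and they covered 1.02%. The marked EV sequence ran on past the window into TAFA5, a gene for a secreted brain protein. TAFA5 was covered to 2.41% in KD and 55.5% in EV, and to 21.96% in the list without a genotype. Of its 44 EV peaks 18 were among the 12081 strongest, and they covered 31.2%. With EV cut to the 12081 peaks, 26 EV peaks stayed at this end and the covered ratio was 0.196. Without 22q the covered ratio over the other ends was 0.430.

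The end of 7q held the most members in KD and EV. It had 94 KD peaks over 115.4 kb and 143 EV peaks over 281.2 kb, and 57 peaks over 64.6 kb in the list without a genotype. Without 7q the KD/EV covered ratio over the other ends was 0.389. Most of these peaks lay in 1 gene, PTPRN2, which encodes a receptor-type tyrosine phosphatase-like protein of secretory vesicles in neurons and endocrine cells. PTPRN2, chr7:157539056-158587823, held 78 KD peaks and 127 EV peaks, and 44 peaks of the list without a genotype. Its covered share was 9.51% in KD and 25.1% in EV, and 4.59% in the list without a genotype. At equal list lengths the gene held 78 peaks in KD and 78 in EV, and the EV peaks covered 17.1%.

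By −log10 p, the strongest subtelomeric peak of each of the 3 lists lay inside PTPRN2. This peak, chr7:158146935-158149172, had a −log10 p of 506.5 in KD and 1055 in EV, and 387.7 in the list without a genotype. Its fold enrichment was 9.51 in KD and 8.94 in EV, each on its own list's scale, and 11.9 in the list without a genotype. The strongest EV peak with no KD peak on it, chr7:158151332-158152928, lay in the same gene, with a −log10 p of 23.5.

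The end of 12q had 31 KD peaks over 31.2 kb and 74 EV peaks over 149.6 kb, and 48 peaks over 62.5 kb in the list without a genotype. Most of it lay in the outer 1 Mb, which holds the zinc finger cluster, with 25.1 kb in KD and 114.6 kb in EV. Between 1 and 2 Mb there were 6.15 kb in KD and 35.0 kb in EV. The end of 19q had 25 KD peaks over 20.6 kb and 86 EV peaks over 129.0 kb, and 72 peaks over 82.7 kb in the list without a genotype. The covered ratio was 0.209 at 12q and 0.159 at 19q. Other ends with a ratio under 0.25 were 12p, at 0.187, and 14q, at 0.233. In the cut EV list the ratios were 0.532 at 12q, 0.319 at 19q, 0.329 at 12p and 0.537 at 14q.

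At 14q most of the difference in covered length lay in the immunoglobulin heavy chain locus IGH. It held 4 KD peaks and 36 EV peaks, and 6 peaks of the list without a genotype, over 0.375%, 4.47% and 0.231% of its length. Of the 36 EV peaks 9 were among the 12081 strongest, and they covered 1.16%. BRF1 at the same end, which encodes a subunit of the RNA polymerase III factor TFIIIB, was covered to a like extent in both, 11.01% in KD and 12.7% in EV, and to 9.90% in the list without a genotype.

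The end of 2p carried many peaks in all 3 lists, 68 in KD and 82 in EV, and 68 in the list without a genotype. SNTG2, the gene for syntrophin gamma, held 14 KD peaks and 14 EV peaks, and 14 in the list without a genotype. PXDN, the gene for the matrix peroxidase peroxidasin, held 11 KD peaks and 10 EV peaks, and 6 in the list without a genotype. The long non-coding RNA gene LALTOP was covered to 7.01% in KD and 16.5% in EV, and to 8.67% in the list without a genotype. The 2p end therefore differed little in peak number, while its covered length was 60.5 kb in KD and 112.5 kb in EV. In the cut EV list it had 42 peaks over 63.0 kb, with 4 in SNTG2 and 5 in PXDN, so KD then had the higher number.

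At 6 ends the KD/EV covered ratio was at least 0.8. They were 7p with 0.958, 6q with 0.935, 6p with 0.861, 5p with 0.845, 10q with 0.834 and 15q with 0.806. With EV cut to the 12081 peaks, the 4 ends at which KD covered more were 7p, 6p, 6q and 5p. At 7p there were 21 KD peaks and 18 EV peaks, and FAM20C, the gene for a kinase of secreted proteins, was covered to 15.6% in KD and 8.66% in EV. At 5p 13 of 16 EV peaks, or 81.2%, were overlapped by a KD peak, among them that of SDHA, a subunit of succinate dehydrogenase. SDHA was covered to 9.51% in KD and 9.18% in EV, and to 5.64% in the list without a genotype. SDHA has near-identical pseudogene copies, so the source of its reads is uncertain.

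**Figure D2:**
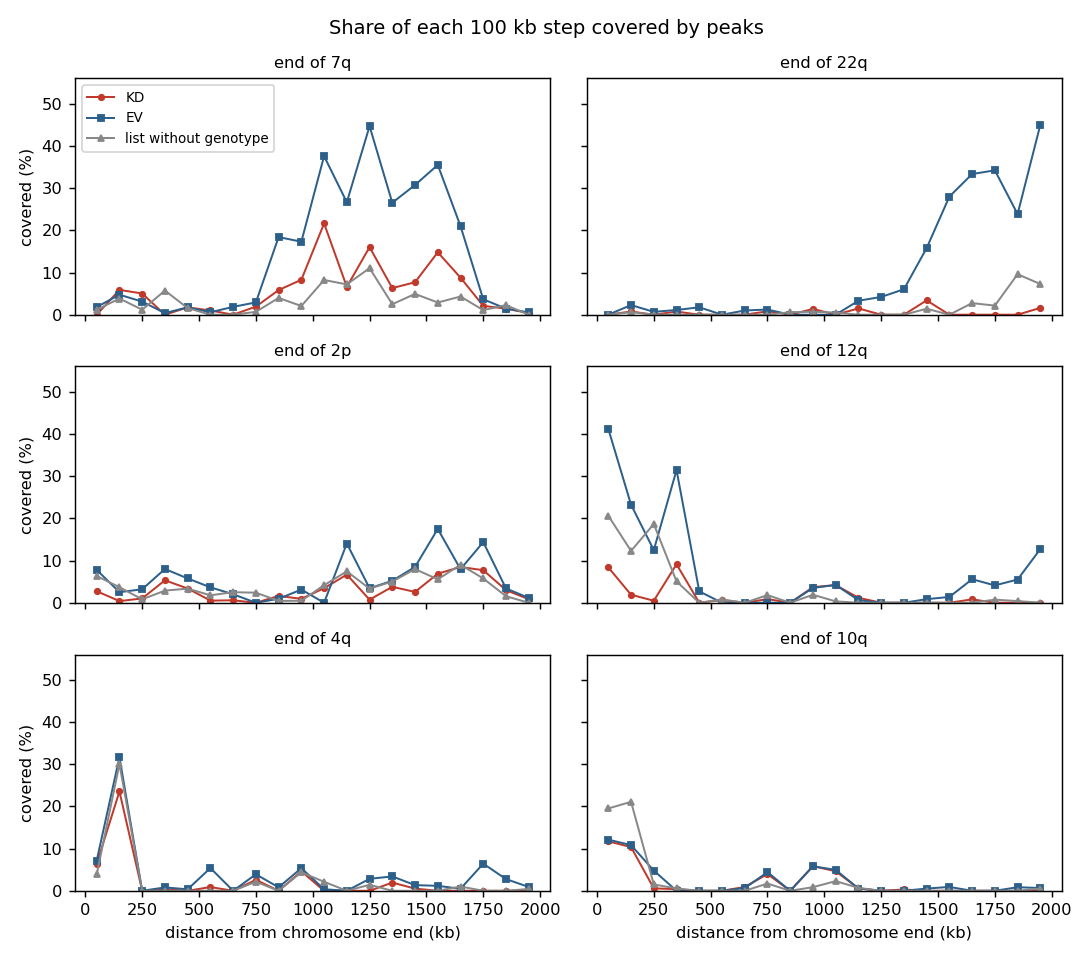
Share of each 100 kb step covered by peaks at 6 chromosome ends, against distance from the end in kb, for KD (circles), EV (squares) and the list without a genotype (triangles), 1 library each. EV coverage is highest 1 to 2 Mb from the end at 22q and in mid-window at 7q, while at 4q and 10q the 3 lists share a block in the outer 250 kb.

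The D4Z4 array at 4q and 10q was marked in every list. Of 30 genes of the array list, 24 were covered to at least 10% in KD and 24 in EV, and 24 in the list without a genotype (80% each). The shares over all autosomal protein-coding genes were 1.43% in KD, 2.62% in EV and 0.742% in the list without a genotype. The array genes are short, with a median of 1.285 kb, so 1 peak of ordinary width can pass that rule. The DUX4-like copies carried a peak in every list at 9 of 9 sites of 4q and at 13 of 14 sites of 10q. The median covered share of a copy was 75.4% in KD and 100% in EV at 4q, and 79.0% in KD and 74.5% in EV at 10q. DUX4 itself, chr4:190173774-190185911, was covered to 31.1% in KD and 31.0% in EV, and to 32.1% in the list without a genotype. Its peak had a −log10 p of 226.6 in KD and 536.5 in EV, and 247.0 in the list without a genotype. The widest KD peak of the windows, 11963 bp, lay over the copies DUX4L1 to DUX4L4. Over the whole 2 Mb window of 10q, array and other sequence together, the covered length was 39.3 kb in KD and 47.1 kb in EV. It was 48.7 kb in the list without a genotype. The outermost 100 kb of 10q was covered to 11.7% in KD and 12.1% in EV, and to 19.5% in the list without a genotype. The next 100 kb was covered to 10.4% in KD and 10.8% in EV, and to 21.1% in the list without a genotype.

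Of 72 duplicon genes, members of sequence blocks repeated between chromosome ends, 8 had a KD peak (11.1%) and 10 an EV peak (13.9%), and 3 had a peak in the list without a genotype (4.17%). Over all autosomal protein-coding genes the shares with a peak were 11.3% in KD, 24.4% in EV and 7.18% in the list without a genotype. The sets are unlike, since the duplicon genes have a median body of 2.536 kb and include pseudogenes and non-coding genes. At least 10% of the body was covered in 5 in KD (6.94%) and 3 in EV (4.17%), and in 1 in the list without a genotype (1.39%). The background shares for that rule were 1.43% in KD, 2.62% in EV and 0.742% in the list without a genotype. Of the cut EV list, 2 of the 72 had a peak and 0 passed 10%. FOXD4, a forkhead gene of 9p with near-identical relatives, was covered to 56.1% in KD and 19.1% in EV, and to 25.7% in the list without a genotype, and its EV peak was not among the 12081 strongest. DDX11L17 of 1p, a pseudogene of the DDX11L family found at many ends, was covered to 57.3% in KD and 9.55% in EV. Other members did not follow these 2 genes. DDX11L9 of 15q was covered nearly alike, 22.9% in KD and 22.6% in EV. DDX11L8 of 12p was covered to 0% in KD and 9.92% in EV. The covered share of the summed bodies was 1.01% in KD and 0.786% in EV, and 0.422% in the list without a genotype. Of 60 olfactory receptor genes, 1 had a KD peak (1.67%) and 2 an EV peak (3.33%), and 0 in the list without a genotype. The 5 globin genes and the 6 beta-defensin genes had 0 peaks in each list.

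The C2H2 zinc finger genes were the longest of the gene lists. By number of members covered to at least 10%, this list had the largest gap between KD and EV. By share the 4 mucin genes had a larger one, 50% in KD and 75% in EV. Of the 90 zinc finger members in the windows, peaks covered at least 10% of the gene body in 4 in KD (4.44%). The number was 23 in EV (25.6%), and 17 in the list without a genotype (18.9%). The shares over all autosomal protein-coding genes were 1.43% in KD, 2.62% in EV and 0.742% in the list without a genotype. The covered share of their summed bodies was 1.94% in KD and 9.98% in EV, and 5.75% in the list without a genotype, and the median member was at 0% in each. At 12q, 1 of 7 members passed 10% in KD and 7 of 7 in EV, and 5 of 7 in the list without a genotype. At 19q, 2 of 51 passed in KD and 12 of 51 in EV, and 11 of 51 in the list without a genotype. In the cut EV list 10 members passed, with 2 of 7 at 12q and 6 of 51 at 19q.

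ZNF605 at 12q was covered to 10.1% in KD and 48.5% in EV, and ZNF268 at the same end to 1.70% in KD and 41.1% in EV. In the cut EV list ZNF605 stayed at 46.6% in EV and ZNF268 was at 0%, so that the direction turned at ZNF268. ZNF274 at 19q encodes a zinc finger protein known to recruit H3K9 methylation to the ends of zinc finger genes, and was covered to 7.44% in KD and 40.9% in EV, or 6.57% in the cut EV list, where the direction turned. ZNF721 at 4p was covered to 8.47% in KD and 41.2% in EV, or 25.1% in the cut EV list. ANHX, a homeobox gene that neighbours the 12q cluster, was covered to 24.9% in KD and 100% in EV, and to 40.8% in the list without a genotype, but no EV peak on it was among the 12081 strongest. ZNF544, whose promoter is printed above, had 1 KD peak and 8 EV peaks, and its body was covered to 0.509% in KD and 31.4% in EV, or 17.7% in the cut EV list. The KD peak of ZNF544 lay over the promoter, where the EV list had a peak of like width, 532 bp in KD and 537 bp in EV. In EV the covered length of the body was 15265 bp, most of it away from that promoter peak. Not every member was lower in KD. ZNF134 was covered to 7.11% in KD and 0% in EV, and to 16.8% in the list without a genotype. Its KD share rests on 1 weak peak with a −log10 p of 3.59. ZNF551 was covered to nearly the same extent, 17.9% in KD and 18.4% in EV, and to 0% in the list without a genotype. In that list ZNF605 was at 5.42%, ZNF274 at 7.06% and ZNF721 at 7.86%, each below KD. ZNF268 was at 16.3% and ZNF544 at 18.3% in the same list, between KD and EV.

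**Figure D3:**
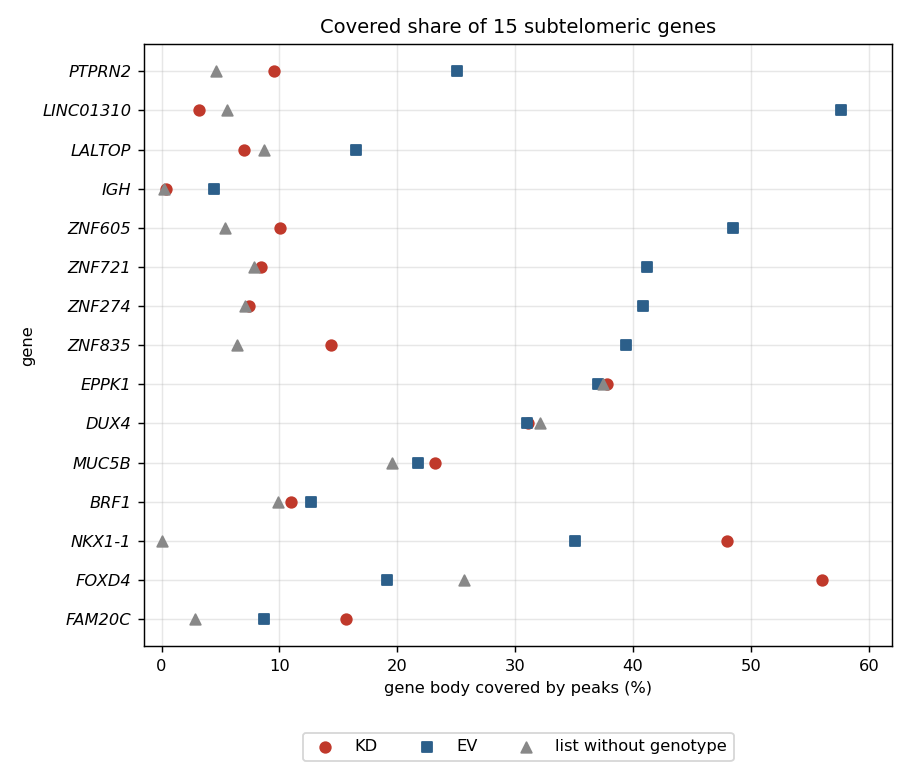
Share of the gene body covered by peaks, in percent, for 15 subtelomeric genes in KD (circles), EV (squares) and the list without a genotype (triangles), 1 library each. KD lies left of EV at the zinc finger genes (turned at ZNF274 with EV cut to its 12081 strongest peaks), PTPRN2 and LINC01310, near EV at EPPK1, DUX4, MUC5B and BRF1, and right of EV at NKX1-1, FOXD4 and FAM20C.

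Several single genes were covered alike. EPPK1 of 8q, the gene for the cytoskeletal linker epiplakin, had 1 wide peak in each list and was covered to 37.8% in KD and 37.0% in EV, and to 37.5% in the list without a genotype. MUC5B, an airway mucin gene of 11p, was covered to 23.2% in KD and 21.8% in EV, and to 19.6% in the list without a genotype. Of 4 mucin genes, 3 had a peak in each list (75%). The shares over all autosomal protein-coding genes were 11.3% in KD, 24.4% in EV and 7.18% in the list without a genotype. The other mucin genes with a peak were covered less in KD. MUC5AC was covered to 11.6% in KD and 16.7% in EV, and MUC2 to 8.06% in KD and 13.3% in EV. In the cut EV list MUC5AC stayed at 16.7% and MUC2 was at 8.58%.

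Of 12 long neural genes, 9 had a KD peak and 9 an EV peak (75% each), and 7 in the list without a genotype (58.3%). These shares are above the 11.3% in KD and 24.4% in EV of all genes, but the list was picked for length, with a median body of 261.9 kb. DLGAP2 of 8p, which encodes a postsynaptic scaffold protein, held 11 KD peaks and 31 EV peaks, and 10 in the list without a genotype, and 17 of the EV peaks were among the 12081 strongest. Of 19 developmental transcription factor genes, 7 had a KD peak (36.8%) and 8 an EV peak (42.1%), and 4 in the list without a genotype (21.1%). The covered share of their summed bodies was 2.85% in KD and 7.45% in EV, and 2.37% in the list without a genotype. The members went both ways. NKX1-1, whose promoter is shown above, was covered to 48.0% in KD and 35.1% in EV. DMRT2 of 9p was covered to 5.07% in KD and 25.9% in EV. Both genes kept their EV shares in the cut EV list. Of 18 housekeeping genes, 1 had a KD peak (5.56%) and 3 an EV peak (16.7%), and 1 in the list without a genotype (5.56%). TERT, the gene for the telomerase catalytic subunit, had 1 KD peak over 2.54% of its body and 1 EV peak over 1.56%.

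Of the 1369 protein-coding genes in the windows, 204 had a KD peak (14.9%) and 306 an EV peak (22.4%), and 149 a peak of the list without a genotype (10.9%). Against the 11.3% in KD, 24.4% in EV and 7.18% in the list without a genotype of all 19126 autosomal genes, the subtelomeric genes were near the background in EV and above it in KD. Their bodies were shorter, with a median of 13.3 kb in the windows and 25.9 kb in the rest of the autosomes. At least 10% of the body was covered in 31 genes in KD (2.26%) and 71 in EV (5.19%), and in 28 in the list without a genotype (2.05%). The background shares for that rule were 1.43% in KD, 2.62% in EV and 0.742% in the list without a genotype.

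Among the 1036 protein-coding genes of at least 5 kb, the covered share was higher in KD at 63 and lower in KD at 254, and 719 had no peak in either list. Over all autosomal genes of that size 3.01% were higher in KD and 26.2% lower in KD. Of 791 steps of 100 kb, 38 were covered to at least 5% in KD and 101 in EV, and 37 in the list without a genotype. The background shares over all autosomal steps were 2.21% in KD, 4.08% in EV and 2.8% in the list without a genotype. Of 2002 promoters, 30 had a KD peak and 54 an EV peak, and 20 a peak of the list without a genotype. The shares over all autosomal promoters were 1.06% in KD, 1.67% in EV and 0.362% in the list without a genotype.

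Subtelomeric peaks lay in genes about as often as the sequence itself. A gene of any type was touched by 71.6% of KD peaks and 66.4% of EV peaks, and by 68.3% of the peaks of the list without a genotype, and genes make up 68.0% of the windows. In the rest of the autosomes, where genes make up 55.6% of the sequence, 26.8% of KD peaks and 40.6% of EV peaks touched one.

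By distance, KD peaks were densest near the end and EV peaks were not. In the outermost 250 kb there were 12.5 KD peaks per Mb and 17.0 EV peaks per Mb, and between 250 kb and 2 Mb there were 8.13 KD peaks per Mb and 17.2 EV peaks per Mb. The list without a genotype had 10.97 and 6.70 per Mb. The KD/EV ratio of peak number was 0.735 (0.577 to 0.934) in the outermost 250 kb and 0.474 (0.427 to 0.524) further in. With EV cut to its 12081 strongest peaks it was 1.51 in the outermost 250 kb and 0.888 further in, so the direction turned near the end, and the higher ratio there remained. Without 4q and 10q, a choice made after seeing the data, the outermost 250 kb held 10.3 KD peaks per Mb and 15.2 EV peaks per Mb, and the inner windows 8.22 and 17.4. The outermost peak lay within 100 kb of the end at 21 ends in KD and 25 in EV, and at 14 in the list without a genotype.

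**Figure D4:**
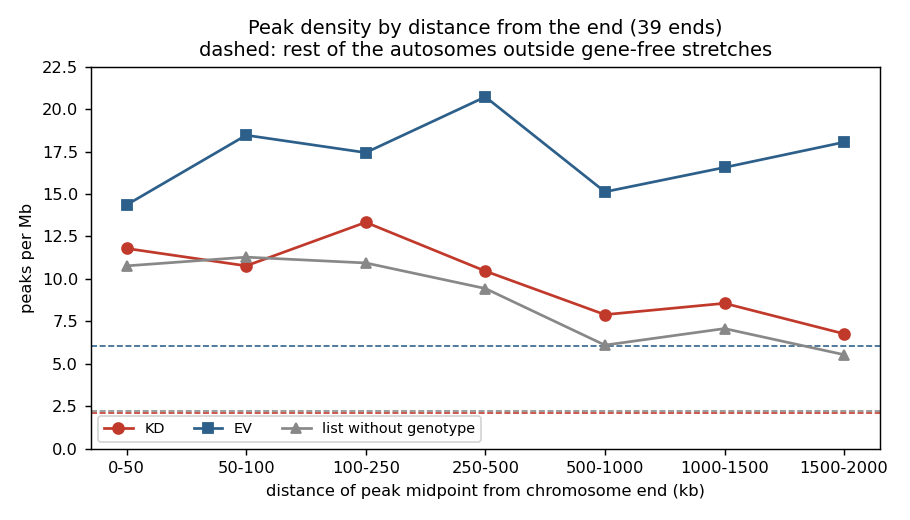
Peaks per Mb against distance of the peak midpoint from the chromosome end, in 7 steps over 39 ends, for KD (circles), EV (squares) and the list without a genotype (triangles), with dashed lines for the rest of the autosomes outside gene-free stretches. KD declines to 6.77 per Mb in the last step and EV stays between 14.4 and 20.7, all above their dashed lines at 2.13 and 6.03.

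Most subtelomeric KD peaks had a counterpart in EV, while most peaks of the longer EV list had none in KD. An EV peak overlapped 549 of 677 KD peaks by at least 1 bp, or 81.1% (77.9 to 84.0), and a KD peak overlapped 529 of 1338 EV peaks, or 39.5% (36.9 to 42.2). Over all autosomal peaks the shares were 87.7% for KD peaks and 37.9% for EV peaks. In the rest outside gene-free stretches they were 78.6% for KD peaks and 27.3% for EV peaks. Of the 706 subtelomeric peaks among the 12081 strongest of EV, 60.8% were overlapped by a KD peak, against 49.1% in the rest outside gene-free stretches. At like −log10 p and width, the rest outside gene-free stretches gave 80.7% for KD peaks and 32.3% for EV peaks.

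Recovery of EV peaks in KD followed their strength. Of EV peaks with a −log10 p under 3.5, 8.18% were overlapped by a KD peak, and 21.5% between 3.5 and 5, 54.4% between 5 and 10, 88.1% between 10 and 30, and 48 of 48 at 30 or more. Outside the windows and gene-free stretches the shares were 4.15%, 14.3%, 39.5%, 81.7% and 100%. EV peaks found in KD had a median width of 1334 bp, against 917 bp for those not found. The 128 KD peaks with no EV peak on them were narrow, with a median width of 534.5 bp.

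**Figure D5:**
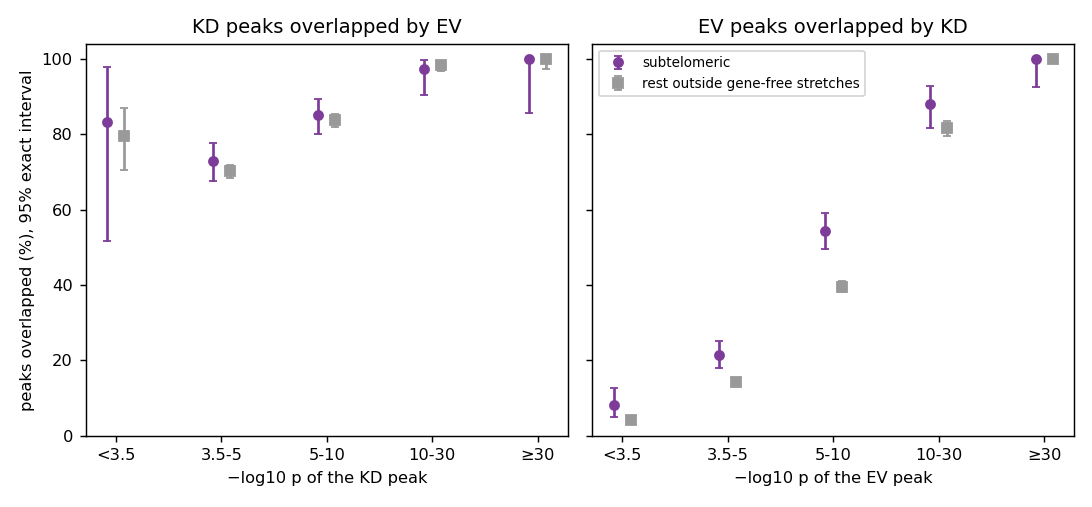
Share of KD peaks overlapped by EV (left) and of EV peaks overlapped by KD (right), in percent with 95% exact intervals, by the −log10 p of the peak, for subtelomeric peaks (circles) and the rest of the autosomes outside gene-free stretches (squares). EV peaks at 30 or more were all overlapped in both regions, and those under 3.5 in 8.18% of subtelomeric cases.

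Merging overlapping peaks of the 3 lists gave 1722 subtelomeric loci. Of these, 728 (42.3%) were in EV alone, 331 in KD and EV, 186 (10.8%) in all 3 lists and 118 in KD alone, and 270 were in the list without a genotype alone. The 186 loci of all 3 lists had a median width of 2146 bp and lay at 37 of 39 ends, with 29 at 7q, 16 at 2p and 11 at 10q. Of these loci 141 touched an annotated gene.

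Next to the PTPRN2 peak, the strongest loci of all 3 lists were at 4q and 18p. At chr4:189232872-189235498, 28.0 kb from the nearest annotated gene, the −log10 p was 502.1 in KD and 759.5 in EV, and 379.6 in the list without a genotype. At chr18:106519-112387, over the pseudogene ROCK1P1 and MIR8078, it was 210.6 in KD and 332.7 in EV, and 164.1 in the list without a genotype. YES1 of 18p, the gene for a Src-family kinase, carried the highest EV fold enrichment of the windows, 9.86.

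Peaks of KD alone were weaker. The strongest, chr5:1539772-1540147, was 376 bp wide with a −log10 p of 16.1. The next lay in GRK1, the rhodopsin kinase gene of 13q, with a −log10 p of 11.3, and in CACNA1B, a neuronal calcium channel gene of 9q, with 7.95. Both genes had 1 EV peak elsewhere in the body.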

How the data were processed

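H3K9me3 was profiled in HEK293T, and the deposited files used here are 3 lists of broad peaks, for KD, EV and a list whose name gives no genotype. Reads were aligned with Bowtie2 and peaks called with MACS2 against build GRCh38, according to the submitters' processing notes, without versions. The sources used here do not state calling options, controls or filters. Fold enrichment is a ratio over background that the authors deposited for each peak. The deposited −log10 p and −log10 q also come from the authors' caller, and no −log10 q is below 1.00. They describe or filter peaks of their own list. The lists hold no read counts, so the depth is unknown.

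Chromosome lengths came from GenomeInfoDb 1.38.1, and genes, promoters and miRNAs from RefSeq tables of GRCh38.p14. Positions count from 1. Overlap of at least 1 bp and covered bases were computed in Python 3.11.15 with numpy 2.4.6 and pandas 2.3.3, and checked against bedtools 2.31.1 on simulated data. Exact intervals came from scipy 1.17.1, plots from matplotlib 3.10.9. At like strength means in the same of 20 bins of −log10 p and 3 bins of width.

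Genes ranked by covered share are protein-coding, lie in the windows and have a body of 5 kb or more. Taken were the 8 with the greatest KD minus EV difference in covered share, the 8 with the greatest EV minus KD difference and the 8 whose smaller share of both was greatest. Up to 4 members of each gene list and the genes at or next to the 3 widest peaks and the 3 peaks of highest fold enrichment were added. The text gives a selection. PTPRN2, IGH and other genes that describe an end, genes of single loci and promoters were chosen after their values were seen. Genes named outside the rankings include non-coding and shorter genes, and TAFA5 lies beyond the window. The members and lists were chosen with earlier results of these data known. Alternatives were other windows, thresholds, merging, overlap and equal peak numbers.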

Additional observations from a re-analysis of the deposited data

Results flagged for a closer look

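The ends of chromosome X were outside the comparisons, and peaks were found there. Within 2 Mb of the Xp end, which holds the pseudoautosomal region shared with Y, there were 16 peaks in KD and 58 in EV, and 7 in the list without a genotype. They covered 16.1 kb in KD and 63.9 kb in EV, and 5.69 kb in the list without a genotype. Within 2 Mb of the Xq end KD and EV were closer. That end held 11 peaks over 7.96 kb in KD and 13 over 11.8 kb in EV, and 15 over 15.8 kb in the list without a genotype. No control peak list was used, and any peak counted as a signal.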

How the results depend on the processing

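Each of 8 results was recomputed under 11 settings, some of which cannot move a given result, such as the reciprocal overlap for peak numbers. Named here are values outside the exact interval of the reported one or, for covered length, which has no such interval, by over 1.5 times. The KD/EV ratio of peak number was 0.570 within 1 Mb, 0.609 within 500 kb, 0.849 for peaks with a fold of 3 or more and 0.959 with EV limited to 12081 peaks. The covered ratio was 0.661 with EV limited, and its lowest value was 0.375, without 4q and 10q. The share of EV peaks overlapped by KD was 44.2% within 1 Mb, 46.5% within 500 kb, 60.8% with EV limited and 25.9% at a reciprocal overlap of 50%. That of KD peaks overlapped by EV was 51.9% at a fold of at least 3, 65.3% with EV limited and 51.1% at the reciprocal overlap. The KD/EV ratio in the outermost 500 kb, 0.609, turned round to 1.02 at a fold of at least 3 and to 1.17 with EV limited. These settings keep fewer EV peaks by construction, and equal list lengths bring the number ratio over all autosomes to 1.

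The subtelomeric share of autosomal peaks was 3.13% in KD, 2.85% in EV and 2.40% in the list without a genotype within 1 Mb, and 1.85%, 1.58% and 1.503% within 500 kb, since the windows are smaller. At a fold of at least 3 it was 4.88% in KD and 4.52% in EV. With peaks within 3 kb merged it was 6.28% in KD and 5.24% in the list without a genotype, and at a −log10 q of at least 2 the list without a genotype had 3.02%. Without the 3 ends with most coverage it was 4.49% in KD, 4.42% in EV and 3.29% in the list without a genotype. Without 4q and 10q, a setting chosen after seeing the data, it was 5.19% in KD and 5.45% in EV. The authors' scaling of the fold is not known, so cuts on fold depend on it. No paired analysis was possible because each group has 1 library. Unknown depth limits every count.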
